A study of Mus musculus with 10 samples.

Results

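Coenzyme Q (ubiquinone) is the lipid that carries electrons within the inner mitochondrial membrane, and the 10 genes described here encode enzymes and partner proteins that build it. They were chosen as Pdss2, Coq2, Coq3, Coq4, Coq5, Coq6, Coq7, Coq8a, Coq8b and Coq9, each taken from array probe sets annotated to that gene symbol alone. All 10 were found, by 1 probe set each, among the 19938 genes that the array measures under a single symbol, and all 10 were bright enough to be among the 13953 genes tested. The genes were selected on their measured log2 differences between the tamoxifen and vehicle arrays as well as on their symbols, since the pathway was put forward with results of this comparison known. Their values and calls are therefore a description, given without p-values.

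RNA came from the ventricles of 10 mice and was measured with 1 Affymetrix mouse gene array a mouse, in 2 groups of 5. The tamoxifen group (titled PGC-1a-/-bf/f/MerCre) was injected at 2 months of age with tamoxifen in sunflower seed oil, 50 mg/kg a day for 2 days, and is labelled as lacking both PGC-1α (gene Ppargc1a) and PGC-1β (gene Ppargc1b). The vehicle group (titled PGC-1a-/-) received the oil alone at the same age and is labelled as lacking PGC-1α with PGC-1β unaffected. Hearts of both groups were collected at 3 months, 1 month after injection. Lack of PGC-1α is therefore shared by all 10 mice. The source names also give the floxed Ppargc1b alleles and MerCre, a Cre recombinase that tamoxifen activates, to both groups, whereas the titles give them to the tamoxifen group alone. The promoter that drives MerCre is not named in the labels. Tamoxifen was given to 1 group only, so its effect and that of the deletion cannot be told apart. The question addressed is what the adult ventricle expresses when PGC-1β is removed in the absence of PGC-1α. Both proteins are transcriptional coactivators best known for raising genes of mitochondrial respiration.

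Synthesis of coenzyme Q joins a long isoprenoid tail to an aromatic ring, and then modifies the ring in steps. The tail comes from the mevalonate pathway in the cytosol, and is extended and attached in mitochondria. Most of the ring-modifying proteins work together in an assembly on the inner membrane, known as complex Q. The finished lipid takes up electrons from complex I, succinate dehydrogenase and several other dehydrogenases and hands them to complex III. The heart, which depends on respiration, is rich in it.

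The signals are on a log2 scale, so that a difference of -1 means that the signal was halved, and differences are tamoxifen minus vehicle. Array medians over all probe sets ran from 7.18 to 7.31, and the highest was that of tamoxifen array 2. A gene was called higher or lower at a limma adjusted p of 0.05 over all genes tested. Of all genes, 8.28% were called lower and 13.6% higher. Higher genes made up 62.2% of all calls with every array and 49.6% without tamoxifen array 2. Ppargc1b, the gene that tamoxifen was meant to delete, did not follow the labels. Its signals were 9.93, 10.15, 10.11, 9.93 and 10.03 in the tamoxifen arrays 1 to 5, against 9.76, 9.69, 9.82, 9.65 and 9.90 in the vehicle arrays 1 to 5. It was 0.27 ± 0.061 higher (SE; limma adjusted p = 0.00528), and no tamoxifen array overlapped a vehicle array. Ppargc1a, which all mice are labelled as lacking, was 0.39 ± 0.095 higher (SE; adjusted p = 0.00813) with overlapping groups. The labels do not say where either probe set lies relative to the deleted sequence, and one that lies elsewhere is no check of the deletion. The group names used here are those on the labels, and so is every direction. The number of arrays limits the precision throughout.

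Markers of some heart cells differed between the groups as well. Summed marker signals did not overlap for cardiomyocytes, macrophages and fibroblasts, and overlapped for the other cell types. Signals were summed before the log2 was taken, so the brightest markers weigh most in a sum. Of all genes tested 13.6% were called higher and 8.28% lower. The summed signal of 7 cardiomyocyte markers, Myh6 and Tnnt2 among them, ran from 16.69 to 16.71 in tamoxifen arrays and from 16.66 to 16.68 in vehicle arrays on the log2 scale, with Actn2 called higher and Ryr2 lower. Of 7 macrophage markers 5 were called higher, with a sum of 12.17 to 12.46 in tamoxifen arrays and 11.95 to 12.15 in vehicle arrays. Of 7 fibroblast markers 4 were called higher, with 14.07 to 14.16 in tamoxifen arrays and 13.94 to 14.01 in vehicle arrays. Dcn, the brightest of them, Pdgfra and Tcf21 were not called, with differences of 0.10, 0.018 and 0.046. Of 6 endothelial markers 1 was called higher, with sums of 13.10 to 13.24 in tamoxifen arrays and 13.09 to 13.27 in vehicle arrays. Of 5 smooth muscle and pericyte markers 1 was called higher, with 13.64 to 13.87 in tamoxifen arrays and 13.60 to 13.69 in vehicle arrays. Among 3 atrial, 2 erythroid and 1 lymphocyte markers tested, 0 were called, and the atrial sum ran from 11.39 to 12.70 in tamoxifen arrays and from 12.04 to 12.36 in vehicle arrays. The part of these cells in the results below was not tested.

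Enzymes of the tail, of the ring and of complex Q upkeep were among the 6 genes called lower in the tamoxifen group, while Coq2, Coq3, Coq4 and Coq8b were not called. Coq5 fell the furthest, to 48.4% of its vehicle signal. Coq9, Coq7 and Coq6 followed at 63.4%, 67.7% and 68.0%, then Pdss2 at 80.8% and Coq8a at 87.8%. Thus 6 of 10 genes were called lower and 0 higher, where 8.28% of all genes tested were called lower and 21.9% in either direction. In the same 6 genes every tamoxifen array lay below every vehicle array, as in 6.12% of all genes, and groups without overlap in either direction made up 16.6%. Since this contrast was known when the genes were chosen, nothing is read from those shares. The median difference over the 10 genes was -0.25, beside 0.014 over all genes tested. In whole ventricle, fewer cells of one type and less RNA per cell cannot be told apart.

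**Figure D1:**
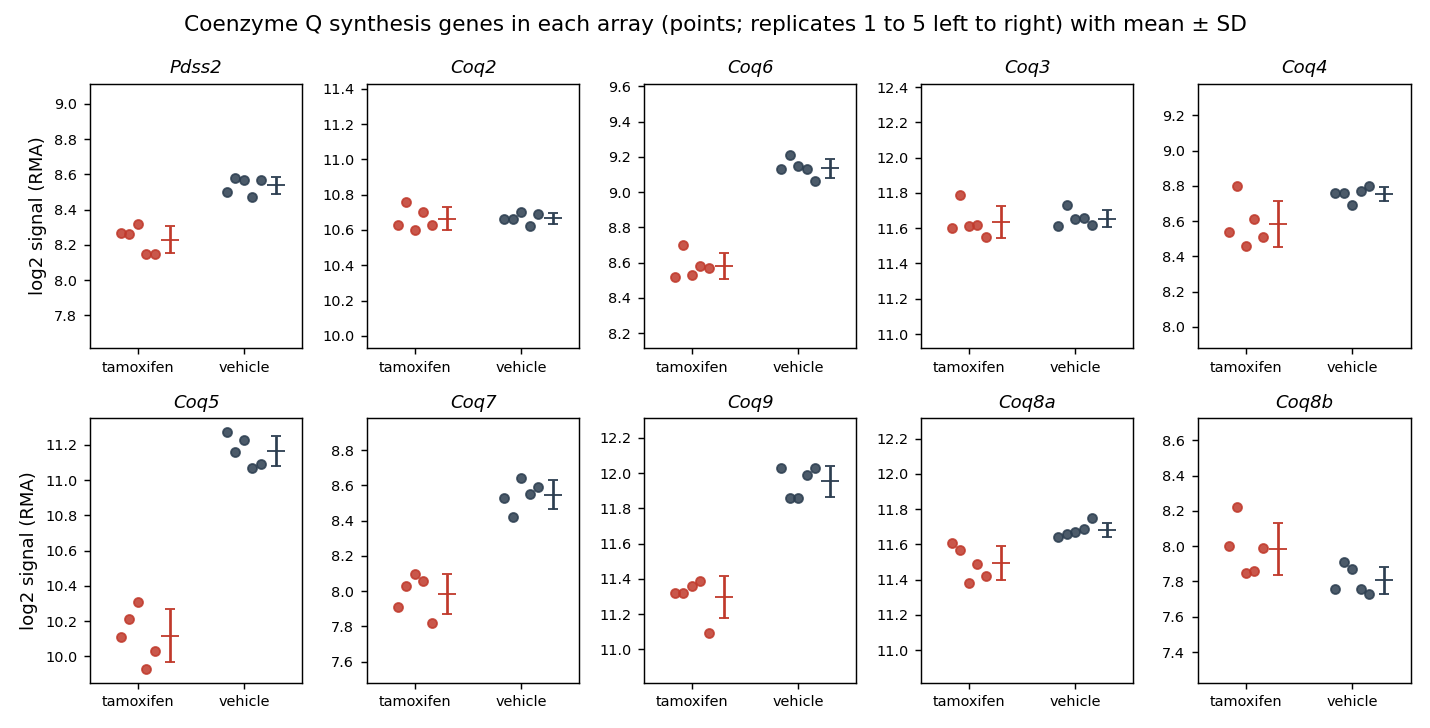
Each panel plots 1 coenzyme Q synthesis gene, with the log2 signal of every array as a point (tamoxifen left, vehicle right) and the mean ± SD of each group (n = 5) beside the points. All panels span the same range of log2 units. In Pdss2, Coq5, Coq6, Coq7, Coq8a and Coq9 the tamoxifen points lie below all vehicle points, and in Coq2, Coq3, Coq4 and Coq8b the groups overlap.

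The pathway opens with Pdss2, a subunit of the enzyme that lengthens the isoprenoid tail. It read 8.27, 8.26, 8.32, 8.15 and 8.15 in the tamoxifen arrays 1 to 5, against 8.50, 8.58, 8.57, 8.47 and 8.57 in the vehicle arrays. Its highest tamoxifen value was 0.15 below its lowest vehicle value. The fall was 0.31 ± 0.051 (SE), or 1.24-fold. Pdss1, the catalytic subunit of the same enzyme, was not analysed here.

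Coq2 joins the finished tail to the ring. It averaged 10.66 ± 0.065 in tamoxifen arrays and 10.67 ± 0.031 in vehicle arrays (SD, n = 5 each). The tamoxifen values of 10.63, 10.76, 10.60, 10.70 and 10.63 reached above and below the vehicle values of 10.66, 10.66, 10.70, 10.62 and 10.69. Its difference was -0.002 ± 0.047 (SE), ran from -0.033 to 0.014 over 18 alternative analyses, and was called in 0 of them.

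Coq6 and Coq3 act in sequence on the same position of the ring, and Coq6 alone of the pair was called lower. Coq6 is a flavin enzyme that adds a hydroxyl group. Its signals were 8.52, 8.70, 8.53, 8.58 and 8.57 in the tamoxifen arrays, against 9.13, 9.21, 9.15, 9.13 and 9.06 in the vehicle arrays, a gap of 0.36 between the groups. It fell by 0.56 ± 0.050 (SE), or 1.47-fold. Coq3 methylates that hydroxyl group, and acts once more at the end of the pathway. It read 11.60, 11.79, 11.61, 11.62 and 11.55 in the tamoxifen arrays, against 11.61, 11.73, 11.65, 11.66 and 11.62 in the vehicle arrays. The groups overlapped throughout, with a difference of -0.02 ± 0.053 (SE), and 0.001 as its highest value over the 18 alternatives. Whether the changes of Coq6 and Coq3 differ was not tested.

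Coq4 is a member of complex Q that has been tied to removal of the ring's carboxyl group. It read 8.54, 8.80, 8.46, 8.61 and 8.51 in the tamoxifen arrays, against 8.76, 8.76, 8.69, 8.77 and 8.80 in the vehicle arrays. Tamoxifen array 2 equalled the highest vehicle value, while the other 4 tamoxifen arrays lay below every vehicle array. The difference was -0.17 ± 0.060 (SE) and was not called. Without tamoxifen array 2 it was -0.23 and was called, as it was under 7 of the 18 alternatives.

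Coq5 adds a methyl group to a ring carbon and had the widest difference of the 10 genes. Its signals were 10.11, 10.21, 10.31, 9.93 and 10.03 in the tamoxifen arrays, against 11.27, 11.16, 11.23, 11.07 and 11.09 in the vehicle arrays. The nearest values of the groups were 0.76 apart, which was more than the spread within either group. The mean was 10.12 ± 0.15 in tamoxifen arrays and 11.16 ± 0.086 in vehicle arrays (SD, n = 5 each). Coq5 fell by 1.05 ± 0.069 (SE), or 2.07-fold, and only 18 of the 13953 genes tested had a lower difference.

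Coq7 and Coq9 form a working pair. Coq7 is the hydroxylase of the late pathway, and Coq9 binds lipid and presents the substrate to it. Coq7 read 7.91, 8.03, 8.10, 8.06 and 7.82 in the tamoxifen arrays, against 8.53, 8.42, 8.64, 8.55 and 8.59 in the vehicle arrays. Coq9 read 11.32, 11.32, 11.36, 11.39 and 11.09 in the tamoxifen arrays, against 12.03, 11.86, 11.86, 11.99 and 12.03 in the vehicle arrays. Neither gene's groups overlapped, and tamoxifen array 5 was the lowest array for both. Coq7 fell by 0.56 ± 0.061 (SE), or 1.48-fold. Coq9 fell by 0.66 ± 0.063 (SE), or 1.58-fold. Their profiles over the 10 arrays, each centred on its own mean, differed by a root mean square of 0.0921, the smallest distance among the 6 genes called lower. The next was that of Pdss2 and Coq8a, at 0.102. This distance includes the difference between the groups. Among all 10 genes, Coq2 and Coq3 (0.0517) and Coq4 and Coq8a (0.0729) were closer pairs. Genes outside the pathway were also closer, with Hibch at 0.059, Ppa2 at 0.0592 and Ak1 at 0.0643 from Coq7, and Dbt at 0.0693 from Coq9.

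Coq8a and Coq8b are paralogs of an atypical kinase family that maintains complex Q, and their differences had opposite signs. Coq8a read 11.61, 11.57, 11.38, 11.49 and 11.42 in the tamoxifen arrays, against 11.64, 11.66, 11.67, 11.69 and 11.75 in the vehicle arrays. The groups were only 0.03 apart at their nearest. Coq8a fell by 0.19 ± 0.053 (SE). It was no longer called when vehicle array 5 was left out (difference -0.17), nor when tamoxifen array 5 was (-0.17). Coq8b read 8.0, 8.22, 7.85, 7.86 and 7.99 in the tamoxifen arrays, against 7.76, 7.91, 7.87, 7.76 and 7.73 in the vehicle arrays. Of the 5 tamoxifen values 3 lay above every vehicle value. Its difference of 0.18 ± 0.068 (SE) was not called, and was called without tamoxifen array 3 (0.21) and in 5 of the 18 alternatives in all. The Coq8a minus Coq8b signal within each array was 3.61, 3.35, 3.53, 3.63 and 3.43 in the tamoxifen arrays, against 3.88, 3.75, 3.80, 3.93 and 4.02 in the vehicle arrays. This contrast of the paralogs was 0.37 lower in the tamoxifen group. It is built from the values on which the genes were selected, so it is a description only. Whether the changes of Coq8a and Coq8b differ was not tested, and the contrast is not the ratio of their transcripts.

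**Figure D2:**
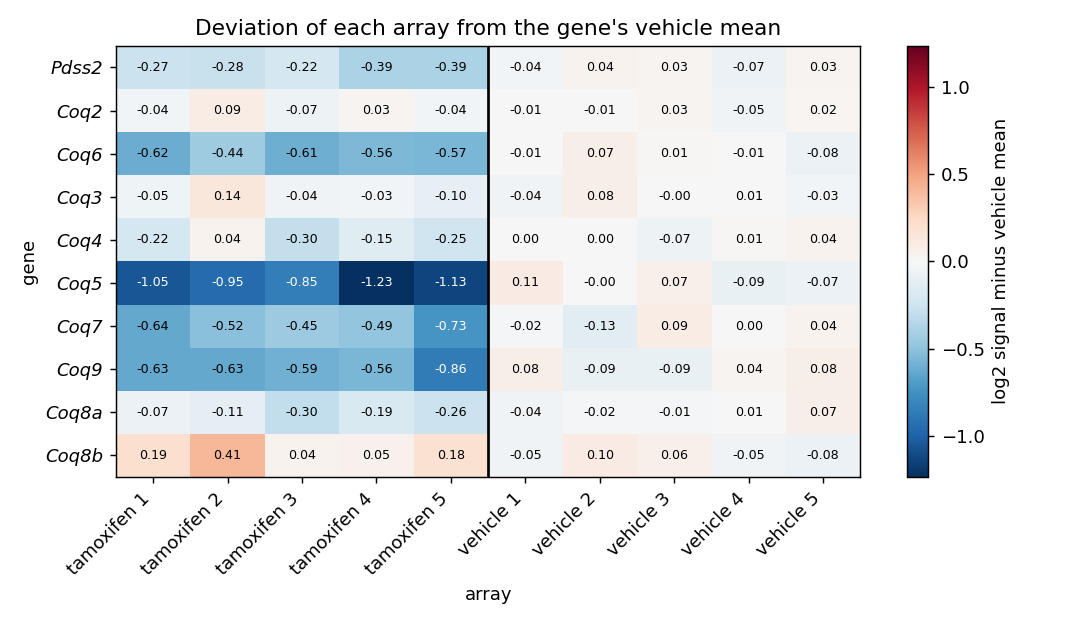
The heat map gives, for each coenzyme Q synthesis gene (rows) and array (columns, 5 tamoxifen then 5 vehicle), the log2 signal minus that gene's vehicle mean. Coq5 is between -1.23 and -0.85 in the tamoxifen arrays, Coq6, Coq7 and Coq9 between -0.86 and -0.44, and the tamoxifen array 2 column is above 0 for Coq2, Coq3, Coq4 and Coq8b.

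The 6 genes called lower were below the vehicle mean in every tamoxifen array, which follows from their lack of overlap. They were picked as lower on these same arrays, so their averages are a description only. Averaged over the 6 genes called lower, the deviation from the vehicle mean was -0.55, -0.49, -0.50, -0.57 and -0.66 in the tamoxifen arrays 1 to 5, against -0.022 to 0.017 in the vehicle arrays. Averaged over Coq2, Coq3, Coq4 and Coq8b it was 0.17 in tamoxifen array 2, between -0.090 and -0.023 in the other 4 tamoxifen arrays, and between -0.023 and 0.045 in the vehicle arrays. In tamoxifen array 2 the median deviation of all genes tested was 0.13, against -0.020 to 0.004 in the other tamoxifen arrays. That array held the highest tamoxifen value of 5 of the 10 genes. The SD over arrays was larger in the tamoxifen group than in the vehicle group for all 10 genes, and for 60.6% of all genes tested. Of the lists described below, the same held for 12 of 12 iron-sulfur cluster assembly genes and 14 of 16 genes of complex III and cytochrome c. It held for 11 of 14 genes of the enzymes that bring electrons to coenzyme Q, 6 of 10 partners and 3 of 7 mevalonate genes. It was thus not particular to the synthesis genes. Without tamoxifen array 2 the SD was larger in the tamoxifen group for 8 of the 10 synthesis genes and for 38.7% of all genes. Leaving out tamoxifen array 2 left the 6 calls in place and added Coq4.

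Placed among all genes, 7 of the 10 differences lay in the lower tail of the contrast they were selected on. Lower differences than that of Coq9 were found in 0.824% of all genes, than that of Coq7 in 1.18% and than that of Coq6 in 1.21%. For Pdss2 the share was 3.46%, for Coq8a 7.56% and for Coq4 8.64%. Coq3 and Coq2 lay in the middle, at 38.8% and 44.4%, and Coq8b in the upper part, at 87.0%. In the order of differences Coq7 and Coq6 are neighbours that differ by less than their SE, as do Coq8a and Coq4, and Coq3 and Coq2.

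**Figure D3:**
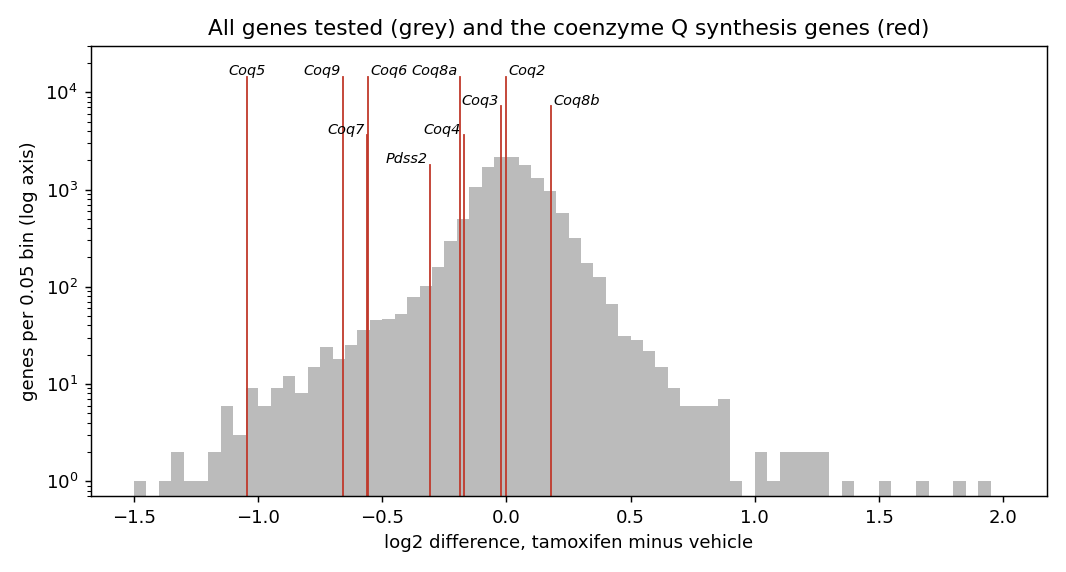
The histogram shows the log2 differences (tamoxifen minus vehicle) of all 13953 genes tested in bins of 0.05 with a logarithmic count axis, and red lines mark the 10 coenzyme Q synthesis genes. Coq5 lies in the far lower tail at -1.05, Coq6, Coq7 and Coq9 between -0.66 and -0.56, and Coq2 and Coq3 in the bulk near 0.

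The promoter windows of the genes are shown because PGC-1 coactivators bind no DNA themselves and act through factors such as the estrogen-related receptors, NRF1 and GABP. RefSeq (GRCm38.p6) gave windows for 8 of the 10 genes, from 250 bases before the transcript start to 50 after it, with a second window for Coq3 and for Coq8a. Coq5 and Coq8b had no entry. Both strands were searched for AAGGTCA (an estrogen-related receptor half-site), CCGGAAG (the core of ETS factors such as GABP) and GCGCATG (an NRF1 half-site), none of which overlapped another. The first was in 0 of the 10 windows and in 4.72% of all 32851 promoter windows of the table. The ETS core was in the windows of Pdss2 and Coq6, both called lower, and in 8.86% of all windows. The NRF1 half-site was in the window of Coq2, which was not called, and in 3.91% of all windows. Coq9, the widest fall among the genes with a window, held 0 of the words. The windows of these 4 genes follow, to 30 bases after the start, 5′ to 3′ along the gene, with the matched word in capitals.
Pdss2, chr10:43221236-43221515, plus strand: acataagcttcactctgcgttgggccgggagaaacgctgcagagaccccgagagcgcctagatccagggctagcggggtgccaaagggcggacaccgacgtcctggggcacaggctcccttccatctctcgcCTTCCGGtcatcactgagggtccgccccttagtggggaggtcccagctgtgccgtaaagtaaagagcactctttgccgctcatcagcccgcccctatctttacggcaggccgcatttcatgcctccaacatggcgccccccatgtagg
Coq6, chr12:84361718-84361997, plus strand: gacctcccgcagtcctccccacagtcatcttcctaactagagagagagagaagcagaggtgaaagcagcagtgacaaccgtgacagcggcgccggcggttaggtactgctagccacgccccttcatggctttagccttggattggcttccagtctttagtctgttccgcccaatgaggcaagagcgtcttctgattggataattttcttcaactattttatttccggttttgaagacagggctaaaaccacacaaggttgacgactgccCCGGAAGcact
Coq2, chr5:100674227-100674506, minus strand: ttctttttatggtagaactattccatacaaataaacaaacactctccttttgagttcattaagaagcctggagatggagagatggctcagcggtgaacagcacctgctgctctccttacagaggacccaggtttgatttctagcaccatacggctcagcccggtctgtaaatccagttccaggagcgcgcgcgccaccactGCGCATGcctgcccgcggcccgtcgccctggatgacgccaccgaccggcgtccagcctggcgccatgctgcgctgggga
Coq9, chr8:94838163-94838442, plus strand: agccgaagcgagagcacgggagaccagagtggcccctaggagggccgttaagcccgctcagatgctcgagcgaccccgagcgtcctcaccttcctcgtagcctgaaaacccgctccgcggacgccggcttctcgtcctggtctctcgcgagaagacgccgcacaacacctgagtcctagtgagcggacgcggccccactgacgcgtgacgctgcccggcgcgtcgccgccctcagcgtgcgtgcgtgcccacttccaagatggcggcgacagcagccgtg
In Pdss2 the word lies on the opposite strand and starts 118 bases before the transcript start. In Coq6 it starts at base 20 after it, and in Coq2 at 49 bases before it. A matching word describes these letters only, and the factors' binding was not measured.

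Genes that act beside the synthesis enzymes were lower in part. This list and those after it were also drawn up with earlier results of these data known, so their p-values, adjusted over all genes tested, describe these arrays and are not independent evidence. Of 13 such partner genes 10 were tested (Pdss1, Fdxr and Fdx2 were not analysed here), and 7 of them were called lower and 2 higher. The shares over all genes tested were 8.28% lower and 13.6% higher. Stard7, a lipid-transfer protein reported to carry coenzyme Q out of mitochondria in human cells, read 9.72, 9.80, 9.75, 9.75 and 9.65 in the tamoxifen arrays, against 10.57, 10.50, 10.53, 10.39 and 10.49 in the vehicle arrays. It fell by 0.76 ± 0.050 (SE; limma adjusted p = 1.67e-08), and the groups stood 0.59 apart. Parl, the membrane protease that cuts Stard7, fell by 0.44 ± 0.056 (adjusted p = 3.00e-05). Hpdl, reported in human cells to make a precursor of the ring, fell by 0.46 ± 0.052 (adjusted p = 7.96e-06). The ferredoxin gene Fdx1 fell by 0.24 ± 0.066 (adjusted p = 0.0165). These 4 were called under every alternative in which they were tested.

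Relatives of the Coq8 kinases showed smaller falls. Adck1 fell by 0.18 ± 0.052 (adjusted p = 0.0176), Adck2 by 0.21 ± 0.059 (adjusted p = 0.0180) and Adck5 by 0.17 ± 0.056 (adjusted p = 0.0434). Coq10a and Coq10b, which bind coenzyme Q and are needed for its use in respiration, went the other way. Coq10a read 12.38, 12.51, 12.36, 12.36 and 12.42 in the tamoxifen arrays, against 12.27, 12.22, 12.28, 12.30 and 12.26 in the vehicle arrays, without overlap. It rose by 0.14 ± 0.047 (adjusted p = 0.0432), and Coq10b rose by 0.27 ± 0.090 (adjusted p = 0.0437) with overlapping groups. The calls of Adck5, Coq10a and Coq10b depended on the settings, with Adck5 called in 10, Coq10a in 9 and Coq10b in 8 of 19 analyses. Adck2 was called in 18 of 19 analyses and Adck1 in 17 of the 18 in which it was tested. Without vehicle array 2 or without tamoxifen array 1 there were 5 calls among the partners, all lower. Pptc7, a mitochondrial phosphatase, was not called (-0.098 ± 0.051, adjusted p = 0.194).

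Most genes that supply the isoprenoid tail were not called, as was true of most genes tested. Of 9 genes of the mevalonate pathway 7 were tested, with 1 called lower, 1 higher and a median difference of 0.032. Over all genes tested, 8.28% were called lower and 13.6% higher, and nothing is read from counts this small. Hmgcs1, which makes the HMG-CoA of that pathway, fell by 0.22 ± 0.062 (limma adjusted p = 0.0169). Fdps, which makes farnesyl diphosphate, rose by 0.19 ± 0.056 (adjusted p = 0.0246). Leaving out vehicle array 5, or tamoxifen array 1, 3 or 4, ended that call and left 1 of the 7 genes called. Mvk, Pmvk, Mvd, Idi1 and Ggps1 were not called, with differences from -0.044 to 0.12. In the branch that leads to sterols, 2 of 11 tested genes were called higher, Nsdhl by 0.38 ± 0.054 (adjusted p = 9.86e-05) and Msmo1 by 0.33 ± 0.062 (adjusted p = 0.00122), and Tm7sf2 was called lower by 0.16 (adjusted p = 0.0423), a call made in 9 of 18 analyses.

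**Figure D4:**
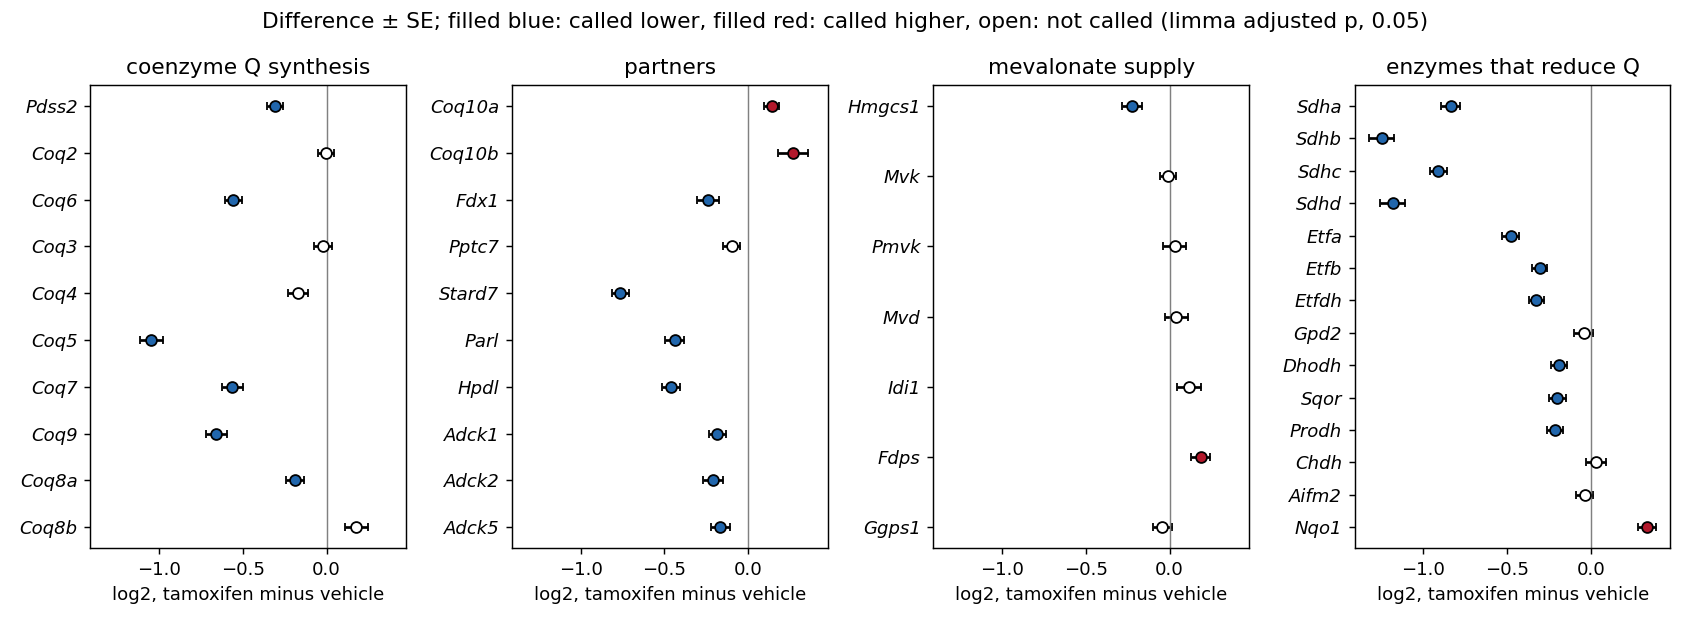
The 4 panels give the log2 difference (tamoxifen minus vehicle) ± SE of each tested gene of coenzyme Q synthesis, its partners, the mevalonate pathway and the enzymes that reduce coenzyme Q other than complex I. Filled points passed the limma threshold. Differences in the mevalonate panel lie between -0.22 and 0.19, while those of the synthesis genes reach -1.05 and those of the reducing enzymes -1.25.

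Genes of the enzymes that bring electrons to coenzyme Q were mostly called lower. Leaving complex I aside, 10 of 14 genes were called lower and 1 higher, with a median difference of -0.26. The count is of genes and not of enzymes, since 4 of them encode subunits of 1 enzyme, succinate dehydrogenase. Over all genes tested 8.28% were called lower and 13.6% higher. The 4 succinate dehydrogenase subunits had the widest falls, with Sdha at -0.84, Sdhc at -0.91, Sdhd at -1.18 and Sdhb at -1.25. The flavoproteins that bring in electrons from fatty acid oxidation fell less, with Etfa at -0.48, Etfdh at -0.33 and Etfb at -0.31. Prodh, of proline breakdown, fell by 0.22 ± 0.048 (limma adjusted p = 0.00429), Sqor, of sulfide oxidation, by 0.20 ± 0.049 (adjusted p = 0.00799) and Dhodh, of pyrimidine synthesis, by 0.19 ± 0.047 (adjusted p = 0.00745). Gpd2, Chdh and Aifm2 were not called, at -0.044, 0.030 and -0.038. Nqo1, a quinone reductase of the cytosol, was the 1 that rose, by 0.33 ± 0.055 (adjusted p = 0.000365), with 10.07 ± 0.072 in tamoxifen arrays and 9.74 ± 0.089 in vehicle arrays (SD, n = 5 each). Every one of these 11 calls held with each array left out in turn.

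Set beside related mitochondrial genes, the synthesis enzymes were mixed. Their median difference was -0.25 with 6 of 10 called lower, beside a median of 0.014 and 8.28% called lower over all genes tested. Genes of complex III, which takes electrons from coenzyme Q, of its assembly factors and of cytochrome c, which complex III reduces, had a median of -0.76 with 14 of 16 lower. Genes of iron-sulfur cluster assembly had a median of -0.19 with 6 of 12 lower. The difference between these lists was not tested.

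Genes with a like pattern were sought by the root-mean-square difference between centred log2 profiles over the 10 arrays, which includes the difference between the groups. Nearest to the mean profile of the 10 synthesis genes were Poldip2, Mrps23, Afg3l2, Prdx2 and Mrps33, at 0.0280 to 0.0332. Nearest to Coq5 were Ptgr2, Mtfp1 and Dlst at 0.0589, 0.0595 and 0.0676. Nearest to Coq9 were Dbt, Cox6b1 and Pdpr at 0.0693 to 0.0729, and nearest to Coq6 were Cox5a, Sdr39u1 and Ndufb2 at 0.0373 to 0.0429. For Pdss2 they were Hars2, Atp5b and Gcat (0.0439 to 0.0491), and for Coq4 Atg13, Slc38a11 and Cisd2 (0.0393 to 0.0425). Those of Coq2 were Cux1, Mfhas1 and Mapre2 (0.0205 to 0.0249), and of Coq3 Dnaja2, Sema6b and Smpd2 (0.0273 to 0.0277). Coq8a had Cdadc1, Dock9 and Paqr4 (0.0405 to 0.0421), and Coq8b had Znrd1, Rab31 and Rgs19 (0.0366 to 0.0383). Within the family the closest pair was Coq2 and Coq3, at 0.0517, both of them without a call.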

How the data were processed

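The deposited values are log2 signals per probe set with 2 decimals. Per the submitters' processing notes, the authors used RMA and Affymetrix Expression Console 1.1. RMA corrects background, normalizes arrays to each other and summarises probes. The table carries no detection call. Labelled DNA was made from 450 ng of RNA, per the labels' protocols. Of 35556 probe sets, 21789 had 1 gene symbol in the platform annotation, 1621 several and 12146 none. The brightest probe set stood for a gene, and the dimmest 30% of genes (mean log2 up to 6.53) were left out. A probe set can also bind near-identical transcripts.

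Groups came from the labels. Both groups entered a limma 3.58.1 linear model (R 4.3.3) with moderated variances and no covariate. P-values were two-sided and adjusted by Benjamini-Hochberg over 13953 genes, and the procedure was tested on simulated data with 200 changed genes. It recovered 67.2% of log2 changes of 0.3 and 98.5% of those of 0.585, and 6.35% of calls were false. These rates belong to a setting with far fewer changed genes than the 3052 called here, and are not those of this comparison. A gene with a small difference can still go uncalled. The labels do not give litters or array batches. The 10 genes and the lists beside them were chosen with earlier results of these data known. Named genes were the 10, both PGC-1 genes, up to 6 genes a direction, by p, and uncalled genes of each other list, and the nearest profiles. Adck5, Etfb, Prodh, Sqor, Dhodh, the 2 called muscle markers and the genes with outlying arrays were named beyond that rule, after their values were seen. Figures used matplotlib 3.10.9. The alternatives were a replicate block, another variance prior, array weights, 2 normalizations, 2 filters, mean probe sets and each array left out.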

Additional observations from a re-analysis of the deposited data

Results flagged for a closer look

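Among 160 groups of 5 values, from the genes of the pathway lists in either condition, 6 held a value far from the other 4, its gap to the nearest being more than 0.71 of the whole range. Chance flags about 1 in 20 groups. Coq9 read 11.09 in tamoxifen array 5, with 11.32 to 11.39 in the other tamoxifen arrays, and its fall held without that array. Dhodh read 7.59 in tamoxifen array 5, against 7.69 to 7.73 in the others, and 7.82 in vehicle array 3, against 7.88 to 7.90 in the others. Nfu1, of iron-sulfur cluster assembly, read 11.85 in tamoxifen array 2, with 11.70 to 11.74 elsewhere in its group. Gpd2 read 8.52 in vehicle array 3, with 8.62 to 8.64 elsewhere in its group. Dhcr7, of sterol synthesis, read 8.02 in vehicle array 1, with 7.72 to 7.75 in the other vehicle arrays.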

How the results depend on the processing

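Pdss2, Coq5, Coq6, Coq7 and Coq9 were called lower under all 18 alternatives, Coq8a under 16, Coq4 under 7, and Coq2 and Coq3 under 0. Coq8b was called higher under 5. The count of synthesis genes called ran from 5 to 8, and their median difference from -0.27 to -0.23. With each array left out, the count was 5 to 7 and the calls over all genes 2523 to 3270. The partners had 5 to 8 calls and the mevalonate genes 1 to 2, which fell to 1 after quantile normalization and without the filter on dim genes. The cause was not tested. The labels do not say that replicate numbers pair the arrays. Deviations of same-numbered arrays correlated at 0.038 to 0.204, above 0.1 for numbers 1, 2 and 5 and not for 3 and 4, and numbers 3 and 4 correlated more with another number, so pairing was not assumed. With the replicate block, 3523 genes were called, 8 synthesis genes among them, with Coq4 and Coq8b added.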
